A study of Mus musculus with 15 samples.

Results

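The genes described here are 8 mouse genes at loci linked to type 1 diabetes, namely Ptpn22, Ptpn2, Cd101, Slc11a1, Tnfrsf9, Cd226, Sh2b3 and Tyk2. They were taken by name from the 48709 rows of the deposited gene table, and each of the 8 had a row. The samples were pancreatic islets of 15 NOD mice, 3 at each of 5 ages (4, 6, 8, 10 and 12 weeks). Per the study's methods all were NOD/ShiLtJ females, the islets were released by collagenase perfusion and picked by hand, and polyadenylated RNA was sequenced. The labels name no treatment, and every group carried the same NOD genotype, so age was the only label that separated the groups. No other strain was included, so each age was compared with another age of the same strain.

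NOD mice develop diabetes spontaneously when leukocytes enter the islets and destroy beta cells, and the chromosomal intervals that govern this are called Idd loci. Cd101, Slc11a1 and Tnfrsf9 are candidate genes of such intervals, and Ptpn22, Ptpn2, Cd226, Sh2b3 and Tyk2 lie at loci associated with the human disease. Most of the encoded proteins act in leukocytes, where they set how strongly antigen receptors, costimulatory receptors and cytokine receptors signal, and Slc11a1 is a metal transporter of phagocytes.

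The counts summed to between 25407492 and 41616275 per mouse, with a median of 28004882. Of the 48709 rows, 16554 passed the filter on low counts and were tested, and all 8 genes were among them. The islet label was borne out by 12 endocrine markers (Chga, Scg2, Neurod1 and others), which summed to 26200 to 27600 CPM (counts scaled to the size of the library) at 4 weeks and 12800 to 16000 CPM at 12 weeks. Over the same ages 8 T-cell markers went from 0.977 to 26.3 CPM to 266 to 367 CPM, 6 B-cell markers from 5.32 to 9.41 CPM to 274 to 415 CPM, and 7 myeloid markers from 33.6 to 153 CPM to 992 to 1040 CPM. Stromal lists moved with age too. The 6 lymph node stroma markers went from 2.97 to 8.72 CPM at 4 weeks to 241 to 466 CPM at 12 weeks, and the 7 mesenchymal markers from 304 to 527 CPM to 1200 to 1910 CPM. Each of the 6 and each of the 7 passed as higher between the grouped ages (10 and 12 against 4 and 6 weeks), with median log2 fold changes of 6.83 and 1.84. The 8 acinar markers summed to 1380 to 11500 CPM at 4 weeks and 3420 to 14200 CPM at 12 weeks. In replicate 1 of 10 weeks they reached 16200 CPM, beside 13100 CPM for the endocrine markers. No acinar marker passed between the grouped ages, with a median log2 fold change of 0.71. The part of stromal and acinar cells in the differences of the 8 genes was not tested. In a mean of 22 leukocyte markers, replicate 1 of 4 weeks and replicate 3 of 6 weeks were the highest of their age, while replicate 1 of 8 weeks and replicate 3 of 10 weeks were the lowest.

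Those mice also stood out in the 8 genes. Replicate 1 was the lowest of the 8-week mice in 8 of 8 genes (100% of them, against 36.8% of all genes tested), and replicate 3 was the lowest of the 10-week mice in 7 (87.5%, against 40.4%). Replicate 1 of 4 weeks was the highest of its age in 6 of the 8 (75%, against 41.9%), and so was replicate 3 of 6 weeks (75%, against 39.5%). The edgeR p-values given below set a difference between ages against the spread between mice of the same age, taken over the ages fitted. These 4 mice make up part of that spread. The exact permutation p-values given below instead come from regrouping the mice of the ages compared.

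The sequences before the transcription starts are shown for 3 of the 4 genes with the largest age differences (Ptpn22, Cd101 and Slc11a1) and for Tyk2 and Tnfrsf9, so that the starts can be compared. They were taken from RefSeq (GRCm38.p6), which gave windows for 6 of the 8 genes, with a pair of windows each for Ptpn22 and Tnfrsf9. Each is the 250 bases before the start, 5′ to 3′ on the gene's strand. Capitals mark matches, on either strand, to the PU.1 core GAGGAA, the RUNX core TGTGGT or the interferon gamma activated site TTCNNNGAA. No capitals overlap between motifs in the sequences shown.
Ptpn22, first start, chr3:103859545-103859794, plus strand: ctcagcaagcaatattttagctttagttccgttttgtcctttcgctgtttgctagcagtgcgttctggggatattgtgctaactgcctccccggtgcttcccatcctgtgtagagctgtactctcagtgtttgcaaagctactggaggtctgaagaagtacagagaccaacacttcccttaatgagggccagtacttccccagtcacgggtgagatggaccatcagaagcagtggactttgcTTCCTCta
Ptpn22, second start, chr3:103860027-103860276, plus strand: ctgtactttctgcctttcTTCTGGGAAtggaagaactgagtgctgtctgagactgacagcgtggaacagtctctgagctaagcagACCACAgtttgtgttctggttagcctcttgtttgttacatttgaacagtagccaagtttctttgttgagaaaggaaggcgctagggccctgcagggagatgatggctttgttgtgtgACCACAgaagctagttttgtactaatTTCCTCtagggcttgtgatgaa
Cd101, chr3:101029554-101029803, minus strand: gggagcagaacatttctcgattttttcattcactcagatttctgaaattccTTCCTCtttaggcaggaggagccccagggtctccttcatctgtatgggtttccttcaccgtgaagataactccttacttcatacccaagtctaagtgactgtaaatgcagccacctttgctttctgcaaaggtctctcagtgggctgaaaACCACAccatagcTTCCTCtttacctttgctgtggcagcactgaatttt
Slc11a1, chr1:74374953-74375202, plus strand: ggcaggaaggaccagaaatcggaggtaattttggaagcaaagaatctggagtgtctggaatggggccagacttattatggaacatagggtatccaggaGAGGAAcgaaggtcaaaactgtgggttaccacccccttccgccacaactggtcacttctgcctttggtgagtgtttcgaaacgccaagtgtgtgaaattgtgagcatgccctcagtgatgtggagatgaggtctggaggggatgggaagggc
Tyk2, chr9:21131276-21131525, minus strand: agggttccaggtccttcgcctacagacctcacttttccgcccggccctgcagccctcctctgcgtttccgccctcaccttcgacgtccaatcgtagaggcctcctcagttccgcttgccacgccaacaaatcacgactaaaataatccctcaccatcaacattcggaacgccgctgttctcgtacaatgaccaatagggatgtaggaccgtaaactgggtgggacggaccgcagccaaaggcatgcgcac
Tnfrsf9, first start, chr4:150919905-150920154, plus strand: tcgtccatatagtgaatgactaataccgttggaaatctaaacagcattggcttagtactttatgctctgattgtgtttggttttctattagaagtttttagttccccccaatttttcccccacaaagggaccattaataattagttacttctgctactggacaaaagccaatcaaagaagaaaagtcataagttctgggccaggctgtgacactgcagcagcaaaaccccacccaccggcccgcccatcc

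The PU.1 core was found in both Ptpn22 windows, at 2 places in Cd101 and at 1 in Slc11a1. It is present in 23.3% of the 32851 RefSeq windows of this length. The RUNX core was found at 2 places in the second Ptpn22 window and at 1 in Cd101, against 14% of all windows, and the activated site was found once in the second Ptpn22 window, against 7.02%. None of these letters occurred in the window of Tyk2 or in the first of Tnfrsf9. The second Tnfrsf9 window (chr4:150927749-150927998, plus strand) and that of Sh2b3 (chr5:121836105-121836354, minus strand) are not printed, since 81 and 45 of their bases lie in annotated exons. The former held the activated site once and the latter held none of the motifs. These counts depend on where the window ends. With 50 bases after the start added, the Sh2b3 window held 1 PU.1 core and the second Tnfrsf9 window 1 RUNX core. The second Ptpn22 window then held 3 RUNX cores, and the other windows gained no match. Of all windows of that length 28.3% hold the PU.1 core and 16.8% the RUNX core. Tyk2 had 19 CpG dinucleotides, more than 80.3% of windows, and Sh2b3 had 8. The Ptpn22 windows had 5 and 2, those of Tnfrsf9 had 4 each, Slc11a1 had 5 and Cd101 had 2, beside a median of 6 over all windows. A match describes letters in a window and says nothing about binding. The start used for Tyk2 lies upstream of the gene region in the deposited table.

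Ptpn22 encodes a phosphatase of lymphocytes that removes activating phosphates from Src-family kinases and Zap70 and so damps T-cell receptor signalling. The gene lies at chr3:103859795-103912247 on the plus strand of GRCm38. At 4 weeks the counts were 86, 17 and 6 in replicates 1 to 3, or 3.22, 0.727 and 0.217 CPM. At 6 weeks they were 7, 35 and 88 (0.277, 0.921 and 3.47 CPM). Both young groups were thus low and widely spread, with a single mouse in each above 3 CPM.

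At 8 weeks the Ptpn22 counts were 42, 400 and 509 (1.53, 14.3 and 18.2 CPM), so that replicate 1 lay among the younger mice. At 10 weeks they were 1236, 1362 and 505 (44.7, 34.2 and 16.8 CPM), and at 12 weeks 950, 702 and 1210 (30.8, 23.5 and 38.0 CPM). All 6 mice of 10 and 12 weeks lay above all 6 of 4 and 6 weeks. Ptpn22 rose by a log2 fold change of 4.46 (SE 1.01) from 4 to 12 weeks (adjusted p = 0.00291, edgeR quasi-likelihood test), and by 4.42 (SE 0.707, adjusted p = 0.000175) when the ages of 10 and 12 weeks were set against 4 and 6. Without replicate 1 of 4 weeks these log2 fold changes were 6.06 and 5.22, and without replicate 3 of 6 weeks the second was 5.05. In these bulk samples a larger number of leukocytes, more Ptpn22 RNA per leukocyte and a change in other cells of the sample cannot be told apart. The same holds for each of the other genes.

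Cd226 encodes an activating receptor of T cells and NK cells that binds nectin-family ligands on other cells. Its region in the table is chr18:89197431-89270201, plus strand. The counts were 29, 2 and 0 at 4 weeks, 2, 8 and 8 at 6 weeks, 5, 56 and 81 at 8 weeks, 161, 218 and 67 at 10 weeks, and 150, 187 and 204 at 12 weeks. The 3 mice of 12 weeks had 4.86, 6.25 and 6.41 CPM. Apart from replicate 1 of 4 weeks the young mice lay near the detection limit, a floor of 3 counts that equals 0.0754 to 0.128 CPM, and no mouse of 10 or 12 weeks overlapped them.

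Cd226 rose by 3.87 on the log2 scale from 4 to 12 weeks (SE 1.0, adjusted p = 0.00623, edgeR), and by 4.16 (SE 0.733, adjusted p = 0.000337) at 10 and 12 against 4 and 6 weeks. With so few reads in the young mice the size of the change hung on single mice. The 12 against 4 week value was 7.06 without replicate 1 of 4 weeks and 3.28 without replicate 3, with adjusted p-values of 0.00136 and 0.0199, and the value for the grouped ages was 5.75 without replicate 1 of 4 weeks.

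Cd101 encodes an immunoglobulin superfamily receptor of myeloid cells and some T cells that is known as a brake on T-cell activation, and lies at chr3:100993529-101029556, minus strand. The counts were 18, 4 and 5 at 4 weeks, 8, 6 and 8 at 6 weeks, 3, 38 and 49 at 8 weeks, 70, 141 and 52 at 10 weeks and 79, 41 and 104 at 12 weeks. It had the lowest mean of the set in TPM, the deposited measure that is scaled to transcript length and library, at 0.178 ± 0.12 TPM in the 6 mice of 4 and 6 weeks and 1.87 ± 0.663 TPM in the 6 of 10 and 12 weeks (SD). In the younger 6 it overlapped Cd226, whose median was lower (0.118 against 0.144 TPM). The older and younger mice did not overlap. Cd101 rose by 2.79 on the log2 scale from 4 to 12 weeks (SE 0.756, adjusted p = 0.00807, edgeR) and by 3.06 (SE 0.542, adjusted p = 0.000354) between the grouped ages, and the former was 3.74 without replicate 1 of 4 weeks.

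Slc11a1 encodes a proton-coupled transporter of iron and manganese in the phagosome membrane of macrophages, and lies at chr1:74375195-74386062, plus strand. It had 101, 59 and 38 counts at 4 weeks and 40, 78 and 82 at 6 weeks, so it was above the floor in every mouse. The counts were 71, 172 and 221 at 8 weeks, 519, 525 and 269 at 10 weeks and 525, 357 and 451 at 12 weeks. In CPM the 4-week mice spanned 1.38 to 3.78 and the 12-week mice 11.9 to 17.0, with no overlap. Slc11a1 rose by 2.49 from 4 to 12 weeks (SE 0.45, adjusted p = 0.000843, edgeR) and by 2.53 between the grouped ages (SE 0.319, adjusted p = 4.19e-05), both log2 fold changes.

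**Figure D1:**
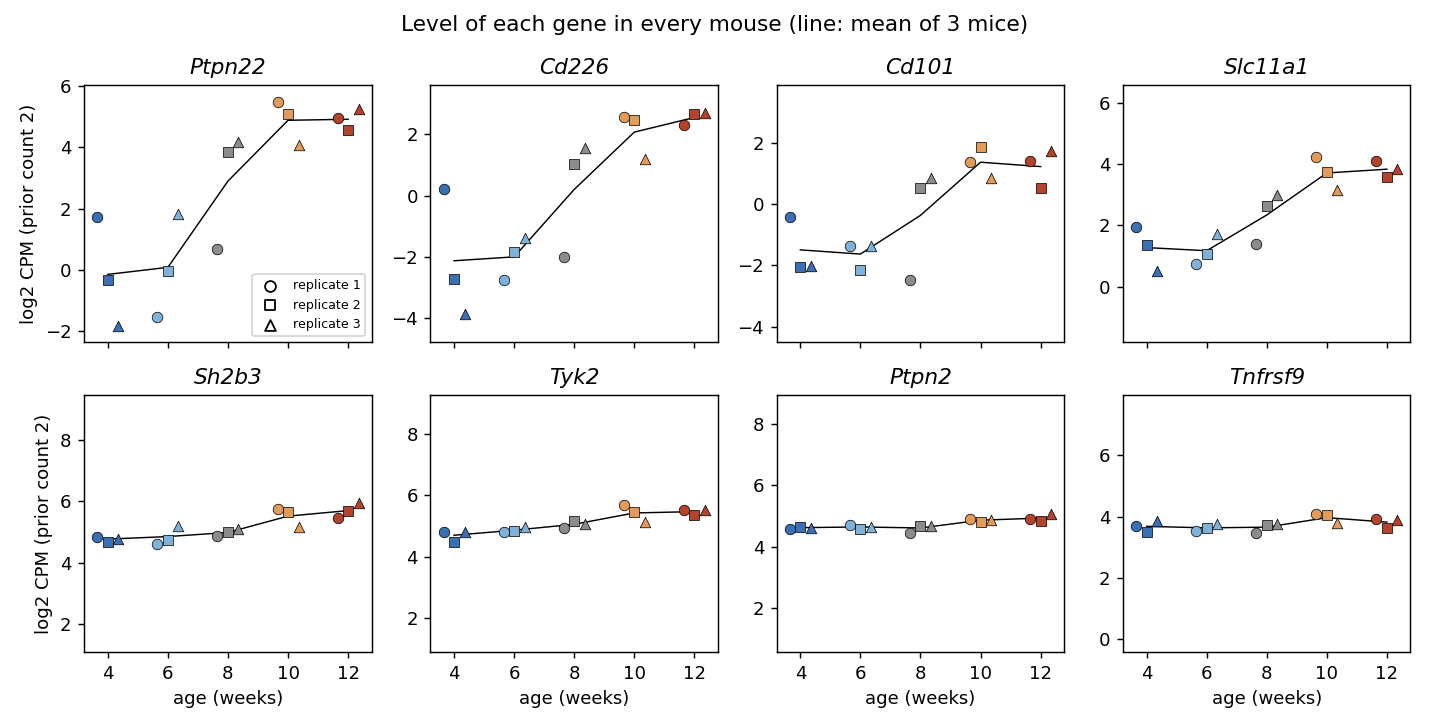
Log2 CPM (prior count 2, vertical axis, the same span in each panel) of the 8 genes in every mouse against age in weeks. Marker shapes give the replicate and the line joins the means of 3 mice. Ptpn22 ranged over 7.29 log2 units and Cd226 over 6.57, while Ptpn2 ranged over 0.6 and Tnfrsf9 over 0.61.

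The other 4 genes were already well above the floor at 4 weeks and changed less. Sh2b3 encodes Lnk, an adaptor that restrains Jak2 and cytokine receptor signalling in blood cells and endothelium, and lies at chr5:121815488-121837646, minus strand. Its levels were 28.7, 25.8 and 27.2 CPM at 4 weeks, 24.6, 26.9 and 36.5 at 6 weeks, 29.2, 31.7 and 34.3 at 8 weeks, 54.2, 50.3 and 35.5 at 10 weeks and 44.0, 51.9 and 61.2 at 12 weeks. The 12-week mice all lay above the 4-week mice, but replicate 3 of 6 weeks lay above replicate 3 of 10 weeks. Sh2b3 rose by 0.94 on the log2 scale from 4 to 12 weeks (SE 0.175, adjusted p = 0.000965, edgeR) and by 0.81 between the grouped ages (SE 0.123, adjusted p = 0.000129).

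Exons of Sh2b3 overlap those of Atxn2 on the opposite strand, and whether the counting used strand was not stated. Atxn2 had 19797 counts over the 15 mice beside 16762 for Sh2b3, so reads could be shared. Atxn2 fell, from 48.6 ± 4.28 to 39.2 ± 3.27 CPM (SD, n = 6) between the grouped ages, a log2 fold change of -0.31 (SE 0.0743, adjusted p = 0.00265, edgeR), opposite to that of Sh2b3. Atxn2 was looked at after the overlap was seen.

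Tyk2 encodes a Janus kinase that serves the receptors of type I interferons and of the cytokines that drive Th1 and Th17 cells, and its region in the table is chr9:21104069-21127346, minus strand. It stood at 28.0, 22.4 and 27.6 CPM at 4 weeks, 28.0, 28.1 and 30.9 at 6 weeks, 30.7, 35.6 and 33.4 at 8 weeks, 50.8, 43.9 and 35.3 at 10 weeks and 46.1, 40.8 and 45.7 at 12 weeks. All 6 mice of 10 and 12 weeks exceeded all 6 of 4 and 6 weeks, although replicate 3 of 10 weeks lay just below 1 mouse of 8 weeks. Tyk2 rose by 0.77 on the log2 scale from 4 to 12 weeks (SE 0.125, adjusted p = 0.000512, edgeR) and by 0.67 between the grouped ages (SE 0.0879, adjusted p = 5.04e-05).

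Ptpn2 encodes a phosphatase that switches off Janus kinases and Stat proteins, in beta cells as well as in T cells, and lies at chr18:67665511-67724595, minus strand. It was among the steadiest of the set between mice of 1 age. The mice had 24.0, 25.2 and 24.6 CPM at 4 weeks, 26.3, 23.9 and 24.9 at 6 weeks, 22.0, 25.7 and 25.7 at 8 weeks, 30.2, 28.0 and 29.1 at 10 weeks and 29.9, 28.5 and 33.4 at 12 weeks. The mice of 10 and 12 weeks lay above the rest without overlap. Ptpn2 rose by 0.32 on the log2 scale from 4 to 12 weeks (SE 0.0787, adjusted p = 0.00513, edgeR) and by 0.27 between the grouped ages (SE 0.0556, adjusted p = 0.00114), which is small beside the genes above.

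Tnfrsf9 encodes CD137, a costimulatory receptor of activated T cells, and lies at chr4:150914562-150946102, plus strand. Its values were 13.0, 11.2 and 14.5 CPM at 4 weeks, 11.5, 12.2 and 13.5 at 6 weeks, 11.1, 13.3 and 13.5 at 8 weeks, 16.9, 16.5 and 13.6 at 10 weeks and 15.3, 12.4 and 14.7 at 12 weeks. The ages overlapped throughout, apart from 10 against 6 and 8 weeks. From 4 to 12 weeks the log2 fold change was 0.14 (SE 0.13, adjusted p = 0.4, edgeR). Between the grouped ages it was 0.24 (SE 0.0921, adjusted p = 0.0388), a call that held in 12 of 22 alternative settings, with an adjusted p of up to 0.0951 when replicate 2 of 4 weeks was left out. It was lost without replicate 1 or 2 of 4, 6 or 10 weeks and without replicate 1 or 3 of 12 weeks, each left out alone. Over the 15 mice Tnfrsf9 ranged over 0.61 log2 units. Tnfrsf9 also shares its region with Camta1 on the other strand, without a shared exon. Camta1 had 12363 counts over the 15 mice beside 6003 for Tnfrsf9. Between the grouped ages Camta1 had a log2 fold change of -0.38 (SE 0.0906, adjusted p = 0.00246, edgeR), opposite to that of Tnfrsf9. Camta1 too was looked at after the overlap was seen.

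Across the set, 7 of 8 genes had an adjusted p under 0.05 in the higher direction at 12 against 4 weeks, where 26.3% of all genes tested did, and 6 of 8 met the threshold of the study (a fold change of at least 1.5 with an unadjusted p under 0.05), against 20.9%. At 10 and 12 against 4 and 6 weeks all 8 passed in that direction, against 30.1% of all genes, and 6 met the study's threshold, against 20.6%. These comparisons share mice. The median log2 fold change of the 8 was 1.67 between the grouped ages, beside -0.05 over all genes. In the test of any change over the 5 ages, 7 of 8 passed, all but Tnfrsf9 (adjusted p = 0.15, edgeR), against 56% of all genes. By exact permutation of log2 CPM, two-sided, the p was 0.00216 for 6 of the genes, the smallest that 6 against 6 mice can give, 0.00433 for Sh2b3 and 0.0281 for Tnfrsf9. With 3 against 3 mice the test cannot go below 0.1, which it gave for the 7 genes that passed at 12 against 4 weeks, and it gave 0.4 for Tnfrsf9.

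The groups of mice did not overlap, with the older higher, in 7 of 8 genes at 12 against 4 weeks (30.3% of all genes) and in 6 of 8 between the grouped ages (19.7%). The exceptions were Tnfrsf9 in the former, and Tnfrsf9 and Sh2b3 in the latter.

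Neighbouring ages were compared as well, where few of the 8 genes passed, so the time at which the differences arose is not settled. None of the 8 genes passed at 6 against 4 weeks, where 0.0906% of all genes did, and their unadjusted p-values ran from 0.227 to 0.902. Cd226 had the widest error there, with a log2 fold change of -0.95 (SE 1.19).

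At 8 against 6 weeks 4 of the 8 met the study's threshold in the higher direction, against 8.4% of all genes. Their log2 fold changes were 3.04 (SE 1.07) for Cd226, 2.89 (SE 0.96) for Ptpn22, 2.05 (SE 0.788) for Cd101 and 1.28 (SE 0.444) for Slc11a1. Their unadjusted p-values in the edgeR fit across all genes were 0.0145, 0.0103, 0.0223 and 0.0133 in that order. After adjustment none of them passed, with adjusted p-values of 0.188 to 0.217, and neither did any of the 16554 genes, although 2983 had an unadjusted p under 0.05. With the edgeR exact test 183 genes passed and with DESeq2 558, but none of the 8 was among them.

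The overlap came from 1 mouse. Replicate 1 of 8 weeks lay within the 6-week range or below it in all 4 of these genes, while the other 8-week mice lay above the 6-week mice. Without that mouse the adjusted p-values were 0.0375 for Ptpn22, 0.0462 for Cd226, 0.0343 for Cd101 and 0.0423 for Slc11a1, with log2 fold changes of 3.41, 3.57, 2.58 and 1.62. Of 22 alternative settings, each of the 4 passed in 1, and it was this omission. The same mouse had 5.95 CPM of summed T-cell markers and 105 CPM of myeloid markers, against 97.8 and 142 CPM and 386 and 528 CPM in the other 8-week mice. The part that leukocyte content plays in its low values was not tested. Without replicate 3 of 8 weeks, 1 of the 8 genes met the study's threshold in place of 4, and the log2 fold change of Cd226 was 2.41 (adjusted p = 0.468, edgeR). Without replicate 3 of 6 weeks that of Ptpn22 was 4.14 (adjusted p = 0.179, edgeR).

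The remaining 4 genes had smaller differences between these ages. Their log2 fold changes at 8 against 6 weeks were -0.03 for Ptpn2, 0.03 for Tnfrsf9, 0.11 for Sh2b3 and 0.2 for Tyk2, with SEs of 0.0788 to 0.174 and adjusted p-values of 0.414 to 0.935 (edgeR).

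At 10 against 8 weeks 2 of the 8 passed in the higher direction, against 8.4% of all genes. Sh2b3 rose by 0.56 (SE 0.174, adjusted p = 0.0464, edgeR) and Ptpn2 by 0.25 (SE 0.0786, adjusted p = 0.048) on the log2 scale. Both calls lay close to the threshold, and Sh2b3 passed in 9 of 22 alternative settings and Ptpn2 in 6. Without replicate 1 of 10 weeks the adjusted p-values were 0.176 and 0.16, and without replicate 1 of 8 weeks they were 0.166 and 0.196. Tyk2 at 0.38 (adjusted p = 0.0512) and Slc11a1 at 1.3 (adjusted p = 0.053) narrowly missed it. Without replicate 3 of 10 weeks both passed, with adjusted p-values of 0.00618 and 0.0223, and without replicate 3 of 8 weeks Slc11a1 had 0.0342. Slc11a1 was the 1 gene at the study's threshold, which 11.1% of all genes met in that direction. Ptpn22, Cd226 and Cd101 had larger log2 fold changes of 1.49, 1.41 and 1.28, but with SEs of 0.675 to 0.866 they did not pass. The groups did not overlap for 4 of the 8 (Ptpn2, Sh2b3, Slc11a1 and Tnfrsf9), against 17.2% of all genes.

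From 10 to 12 weeks none of the 8 passed, the largest difference being 0.37 (SE 0.828) for Cd226. None of the 16554 genes passed in edgeR either, although 1245 had an unadjusted p under 0.05, and the edgeR exact test gave 7 and DESeq2 gave 12.

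**Figure D2:**
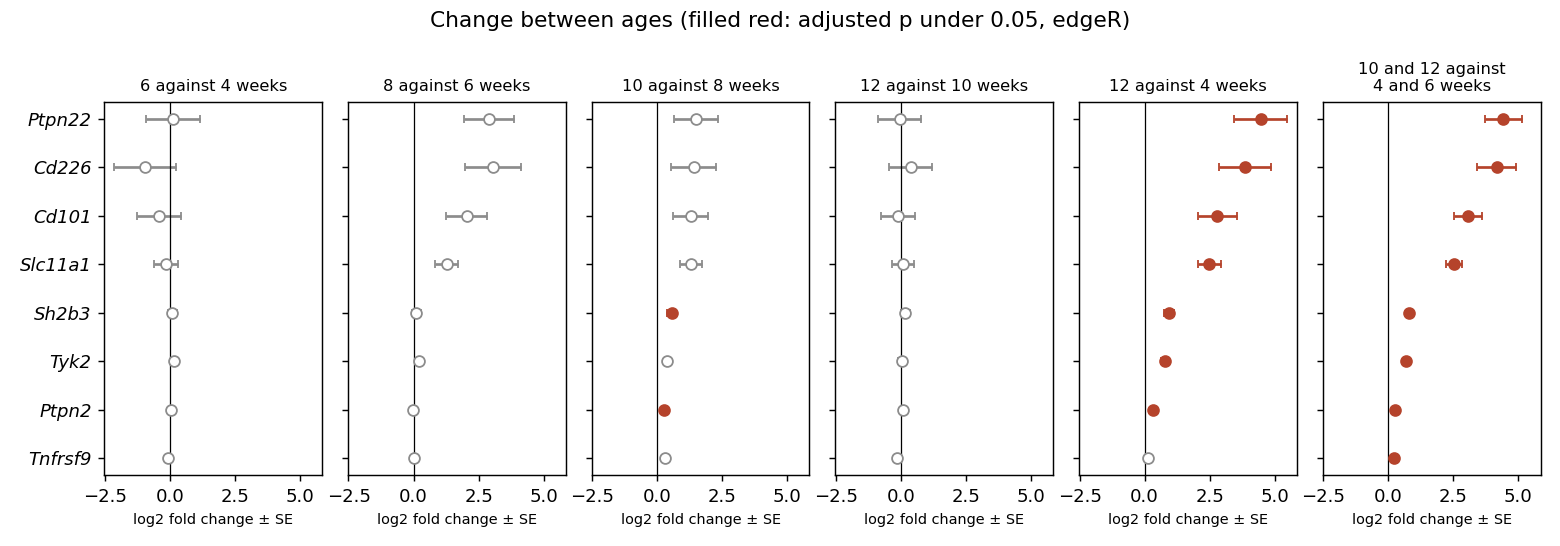
Log2 fold change ± SE of the 8 genes (horizontal axis) in 4 neighbouring and 2 wider age comparisons, from the edgeR fit of all 15 mice. Filled red points have an adjusted p under 0.05. At 8 against 6 weeks the upper 4 genes lie between 1.28 and 3.04 and the lower 4 between -0.03 and 0.2.

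Levels of different genes were compared in the deposited TPM. In the 6 mice of 4 and 6 weeks the order was Ptpn2 (15.3 ± 0.626 TPM, SD), Tyk2 (11.5 ± 1.39), Sh2b3 (11.4 ± 1.91), Tnfrsf9 (8.96 ± 1.01), Slc11a1 (1.27 ± 0.522), Ptpn22 (0.901 ± 0.92), Cd226 (0.248 ± 0.343) and Cd101. Ptpn2 did not overlap Tyk2, though the highest Sh2b3 mouse (14.9 TPM) exceeded the lowest Ptpn2 mouse (14.5 TPM), and Tnfrsf9 did not overlap Slc11a1. The other neighbours in that order overlapped.

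In the 6 mice of 10 and 12 weeks Sh2b3 (25.7 ± 5.68 TPM), Ptpn22 (24.4 ± 8.51), Ptpn2 (23.7 ± 2.69) and Tyk2 (23.5 ± 3.47) formed a group of overlapping levels, followed by Tnfrsf9 (13.6 ± 1.7), Slc11a1 (9.4 ± 2.51), Cd226 (5.48 ± 1.77) and Cd101. Ptpn22 had thus moved from the 6th to the 2nd place. Differences between ages in TPM are not those of the tests, which used the counts. Ptpn2 went from 24.8 ± 0.878 to 29.8 ± 1.93 CPM and Ptpn22 from 1.47 ± 1.48 to 31.3 ± 10.1 CPM over the same mice.

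**Figure D3:**
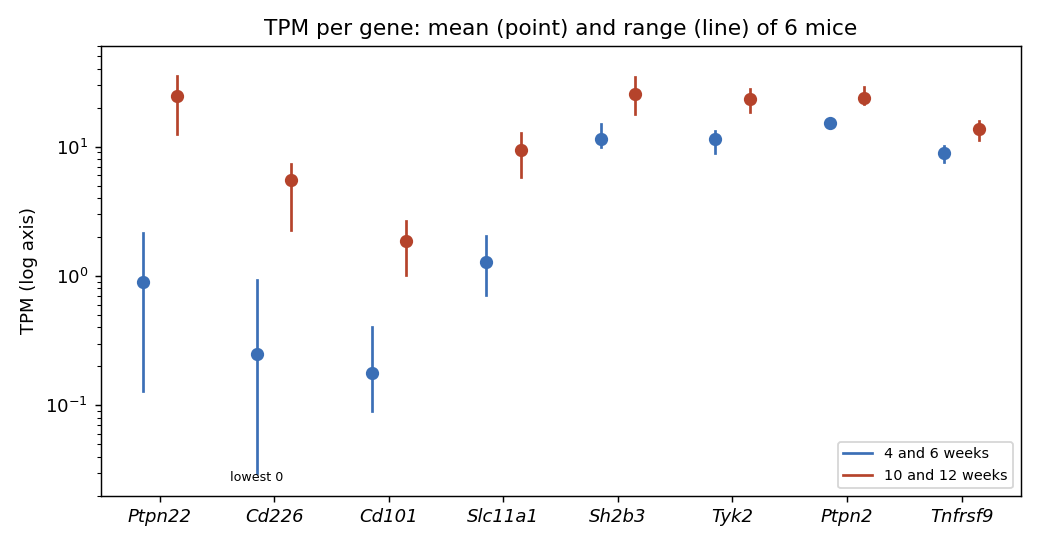
Deposited TPM (log axis) of the 8 genes in the 6 mice of 4 and 6 weeks (blue) and the 6 mice of 10 and 12 weeks (red). Points are means and lines run from the lowest to the highest mouse, with the Cd226 line drawn to the foot because 1 mouse had 0. Ptpn22 goes from a mean of 0.901 to 24.4 TPM, while Ptpn2 goes from 15.3 to 23.7 TPM.

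Since leukocyte markers moved with age, each gene was also set against them within each mouse. The log2 CPM of Ptpn22 minus the mean log2 CPM of the 22 leukocyte markers was -0.54 ± 0.5 in the 6 mice of 4 and 6 weeks and -0.28 ± 0.23 in the 6 of 10 and 12 weeks, a difference of 0.27 (exact permutation p = 0.266, two-sided). For Cd226 the difference was -0.29 (exact p = 0.433). Relative to the same markers Cd101 differed by -1.81 (exact p = 0.00433) and Slc11a1 by -2.12 (exact p = 0.00216). Sh2b3, Tyk2, Ptpn2 and Tnfrsf9 had differences of -3.86, -4.0, -4.4 and -4.43 (exact p = 0.00216 each). The marker mean itself ran from -0.89 to 2.08 log2 CPM in the younger and from 4.33 to 5.57 in the older mice. A gene that changes little must then give the smallest p. The values of these 4 genes thus reflect the rise of the markers. Those of Cd101 and Slc11a1 hold that rise too. Both genes rose, by 2.86 and 2.55 in mean log2 CPM, but by less than the marker mean.

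The choice of markers decided where the large changers stood. Against the 7 myeloid markers alone, Slc11a1 differed by -0.01 between the grouped ages (exact p = 0.952) and Cd101 by 0.3 (exact p = 0.275), while Ptpn22 was higher by 2.38 (exact p = 0.00216) and Cd226 by 1.82 (exact p = 0.00433). The difference of Slc11a1 from the myeloid mean spanned -1.75 to -1.28 in the older 6 mice and -1.75 to -1.09 in the younger 6. The 8-week mice had -1.69, -1.9 and -1.62, and replicate 2 of them lay below both spans. Against the 8 T-cell markers alone Ptpn22 was lower at the older ages by 0.48 (exact p = 0.00433) and Cd226 by 1.04 (exact p = 0.0152), and Cd101 and Slc11a1 differed by -2.56 and -2.87 (exact p = 0.00216 each).

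**Figure D4:**
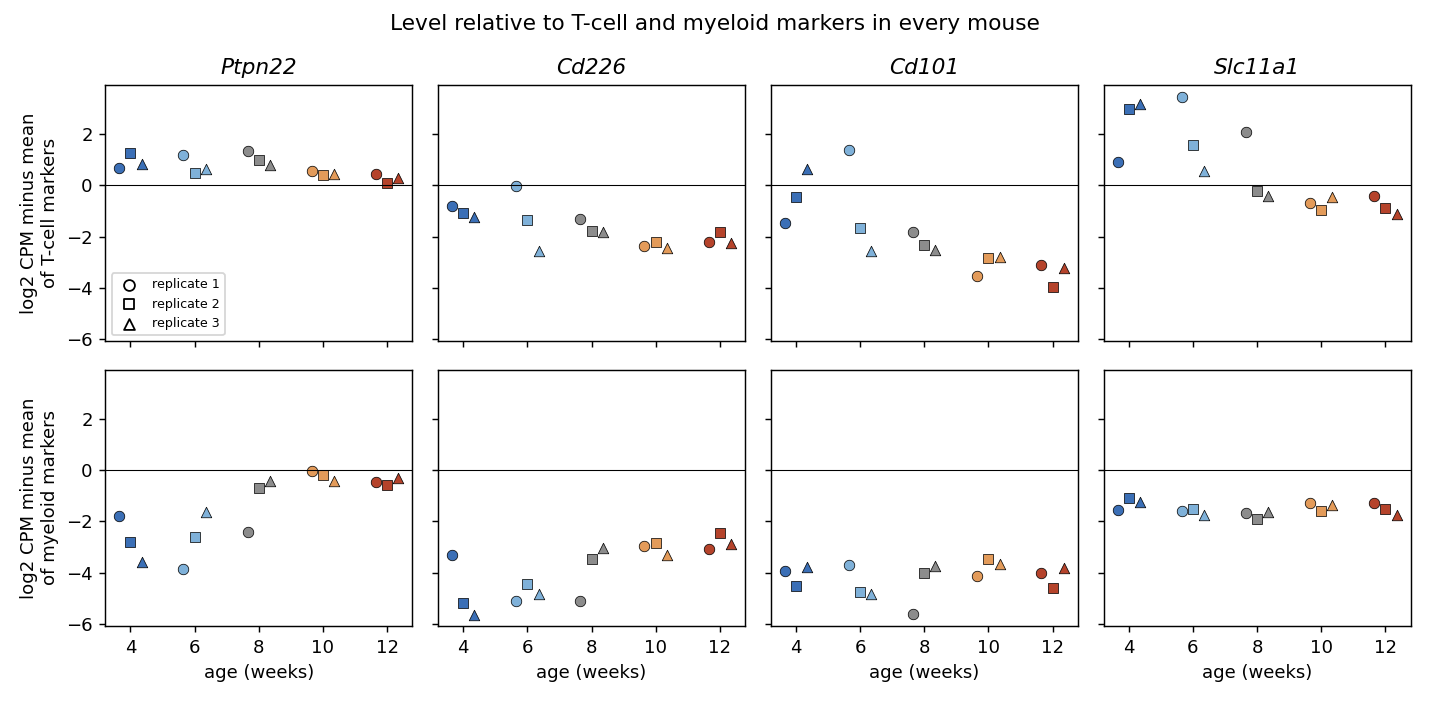
Log2 CPM of Ptpn22, Cd226, Cd101 and Slc11a1 in every mouse minus the mean log2 CPM of 8 T-cell markers (upper row) or 7 myeloid markers (lower row), against age in weeks, with marker shapes for replicates. Slc11a1 averages -1.46 against the myeloid markers in the mice of 4 and 6 weeks and -1.47 in those of 10 and 12 weeks, with the 8-week mice between -1.9 and -1.62, and Ptpn22 stays within 0.08 to 1.27 of the T-cell markers in the mice of 4, 6, 10 and 12 weeks.

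With the leukocyte marker mean of each mouse as a covariate in the edgeR fit, none of the 8 genes passed between the grouped ages, and none of the 16554 genes did, although 1068 (6.45%) had an unadjusted p under 0.05. No other tool was run with the covariate. The log2 fold changes were -1.56 for Ptpn22 (SE 0.368, unadjusted p = 0.000926, adjusted p = 0.26) and -2.06 for Cd226 (SE 0.887, unadjusted p = 0.037, adjusted p = 0.756). Those of the other 6 lay between -0.77 for Cd101 and 0.3 for Tyk2, with unadjusted p-values of 0.189 or more. The marker mean ran from -0.89 to 2.08 log2 CPM in the mice of 4 and 6 weeks and from 4.33 to 5.57 in those of 10 and 12 weeks, so that age and marker level can hardly be told apart in this fit.

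The profiles over the 15 mice were compared by the root mean square difference of log2 CPM after centring each gene on its own mean, where 0 is an identical profile. The genes nearest to Ptpn22 among all 16554 were Itgal (0.207), Traf1 (0.246) and Sh2d1a (0.25), all of them known from lymphocytes. Those nearest to Cd226 were AI662270 (0.334), Gata3 (0.335) and Lcp2 (0.347), to Cd101 Ticam2 (0.357), Fcer1g (0.362) and Rgs10 (0.371), and to Slc11a1 Rps6ka1 (0.174), Ldha (0.176) and Samhd1 (0.184). Within the set, Ptpn22 and Cd226 differed by 0.543 and Cd101 and Slc11a1 by 0.571, while Ptpn22 and Ptpn2 differed by 2.4.

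Sh2b3 was nearest to Sertad2 (0.0907), Tbc1d2b (0.0947) and Il17ra (0.102), and Tyk2 to Ppt1 (0.0807), Ikbkb (0.0826) and Esyt1 (0.0832). Ptpn2 was nearest to Brpf1 (0.057), Rpusd4 (0.0686) and Cdc42se2 (0.0696), and Tnfrsf9 to 0610007P14Rik (0.0551), Psma5 (0.0871) and Gna12 (0.0885). Small values are common for genes that vary little. Ptpn2 and Tnfrsf9 differed from each other by 0.145, and Sh2b3 and Tyk2 by 0.175. Set against the means of the marker lists, Ptpn22 was nearest to Ptprc (0.325) and the T-cell markers (0.362). Cd226 was nearest to Ptprc (0.413), then to 5 NK-cell markers (0.543) and the T-cell markers (0.684). The NK-cell markers were low in young mice, with a sum of 0 to 1.5 CPM at 6 weeks. Slc11a1 (0.216) and Cd101 (0.558) were nearest to the myeloid markers. Tnfrsf9 (0.19), Ptpn2 (0.13), Tyk2 (0.282) and Sh2b3 (0.352) were nearest to the endothelial markers, a list of which 2 of 6 genes rose, 1 fell and 3 did not pass between the grouped ages.

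The known partners of each gene are given next, all at 10 and 12 against 4 and 6 weeks, where 30.1% of all genes rose and 33.7% fell. All 7 Ptpn22 partners rose, with a median log2 fold change of 4.24. Zap70, Lck and Cd247, the proximal machinery of the T-cell receptor, rose by 4.43 (SE 0.747), 4.26 (SE 0.643) and 4.24 (SE 0.722), and Pstpip1, an adaptor that binds PEST phosphatases, by 4.27 (SE 0.732). Csk, the kinase that binds Ptpn22 and holds Src-family kinases inactive, rose by 0.95 (SE 0.101). All had adjusted p-values of 0.000281 or less (edgeR).

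In each mouse the distance from Ptpn22 to these partners can be read directly. Ptpn22 minus Csk was -5.76 ± 1.47 log2 CPM in the 6 younger and -1.76 ± 0.33 in the 6 older mice (exact permutation p = 0.00216, two-sided). In TPM, Csk was at 37.3 ± 3.0 and 92.6 ± 15.7 beside 0.901 and 24.4 for Ptpn22. Ptpn22 minus Lck was -1.6 ± 0.52 and -1.27 ± 0.15, a difference of 0.33 (exact p = 0.13). This was 1 of 12 pairs of a gene with a partner or relative compared in this way, which were picked after the values were known.

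Cd226 competes for its ligands with the inhibitory receptors Tigit and Cd96. Tigit rose by 4.23 (SE 0.868, adjusted p = 0.000981, edgeR) and Cd96 by 4.1 (SE 0.507, adjusted p = 3.82e-05), both log2 fold changes close to the 4.16 of Cd226. Cd226 minus Tigit was -0.58 ± 0.81 log2 CPM in the younger and -1.06 ± 0.6 in the older mice (exact p = 0.281), and Cd226 minus Cd96 was -1.36 ± 1.01 and -1.12 ± 0.07 (exact p = 0.626). In TPM of the older mice Cd226 was at 5.48, Cd96 at 12.8 ± 3.97 and Tigit at 28.0 ± 9.68. Among the nectin-family genes listed, Pvr rose by 0.73 (SE 0.126) and Nectin2 had a log2 fold change of 0.08 (adjusted p = 0.336). That of Nectin3, not counted here as a ligand of Cd226, was -0.52 (SE 0.0818, adjusted p = 0.000156).

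Of the Tyk2 list, 11 of 11 tested genes rose, with a median of 1.4. Il23r, a Tyk2-dependent receptor, had 0 to 13 counts and was dropped by the filter. Among the Janus kinases Jak3, which serves the common gamma chain, rose by 2.01 (SE 0.271), Jak2 by 1.37 (SE 0.181) and Jak1 by 0.61 (SE 0.0619). Tyk2 minus Jak1 was -2.83 ± 0.12 log2 CPM in the younger and -2.77 ± 0.13 in the older mice (exact p = 0.45), whereas Tyk2 minus Jak2 differed by -0.69 and Tyk2 minus Jak3 by -1.33 (exact p = 0.00216 each). Among the receptors that use Tyk2, the interleukin receptor chains Il12rb2 and Il12rb1 rose by 3.59 (SE 0.555) and 3.38 (SE 0.687), and the interferon receptor chains Ifnar2 and Ifnar1 by 0.9 (SE 0.121) and 0.52 (SE 0.0991). The difference between these receptors was not tested.

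Of the 9 Ptpn2 relatives and substrates 7 rose, 1 fell and 1 did not pass, with a median of 0.71. Ptpn1, the closest relative of Ptpn2, rose by 0.73 (SE 0.107). Ptpn2 minus Ptpn1 went from -1.6 ± 0.11 to -2.06 ± 0.15 log2 CPM (exact p = 0.00216). Stat5b was at -0.06 (adjusted p = 0.46, edgeR), and Insr, the insulin receptor, had a log2 fold change of -0.18 (adjusted p = 0.0301).

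Of the 5 tested relatives and partners of Sh2b3, 3 rose (Jak2, Sh2b2 and Kit) and 2 did not pass. Sh2b2 rose by 3.35 (SE 0.442) and Sh2b1 was at 0.05 (adjusted p = 0.329, edgeR). Sh2b3 minus Sh2b1 went from -0.82 ± 0.25 to -0.07 ± 0.28 log2 CPM (exact p = 0.00433) and Sh2b3 minus Sh2b2 from 5.31 ± 0.39 to 2.82 ± 0.23 (exact p = 0.00216). The 3 adaptors of the family thus did not move together.

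All 3 genes of the Tnfrsf9 list rose, and they did so by unequal amounts. Traf1, an adaptor of CD137, rose by 4.21 (SE 0.705, adjusted p = 0.000238, edgeR), Traf2 by 0.69 (SE 0.0967) and the ligand Tnfsf9 by 0.6 (SE 0.199, adjusted p = 0.0176). Tnfrsf9 minus Tnfsf9 was 2.7 ± 0.35 log2 CPM in the younger and 2.36 ± 0.36 in the older mice (exact p = 0.123).

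Of the 4 tested Slc11a1 relatives and iron genes, Hmox1 rose by 1.05 (SE 0.139), Slc11a2 had a log2 fold change of -0.25 (SE 0.0743, adjusted p = 0.011, edgeR), and Slc40a1 and Tfrc did not pass. Slc11a1 minus Slc11a2, the widely expressed family member, went from -4.27 ± 0.54 to -1.47 ± 0.39 log2 CPM (exact p = 0.00216). Of the Cd101 relatives Igsf3 rose by 1.11 (SE 0.162), Ptgfrn by 1.07 (SE 0.142) and Igsf8 did not pass, at -0.13 (adjusted p = 0.201).

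A further 38 genes named at diabetes loci were listed, of which 37 were tested and Il2, with 0 to 5 counts, was dropped by the filter. Of the 37, 32 rose, 4 fell and 1 did not pass at 10 and 12 against 4 and 6 weeks. Of all genes tested 30.1% rose and 33.7% fell. The median log2 fold change of the 37 was 2.8. The largest increases were those of Il21 at 5.5 (SE 0.792), Themis at 5.02 (SE 0.754), Ubash3a at 4.85 (SE 0.784) and Icos at 4.59 (SE 0.772), genes known from T cells. The decreases were those of Glis3, a beta-cell transcription factor, at -0.68 (SE 0.0784), Rnls at -0.45 (SE 0.119), Ormdl3 at -0.38 (SE 0.0721) and Cobl at -0.27 (SE 0.0953), with adjusted p-values of 2.92e-05 to 0.0255 (edgeR).

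**Figure D5:**
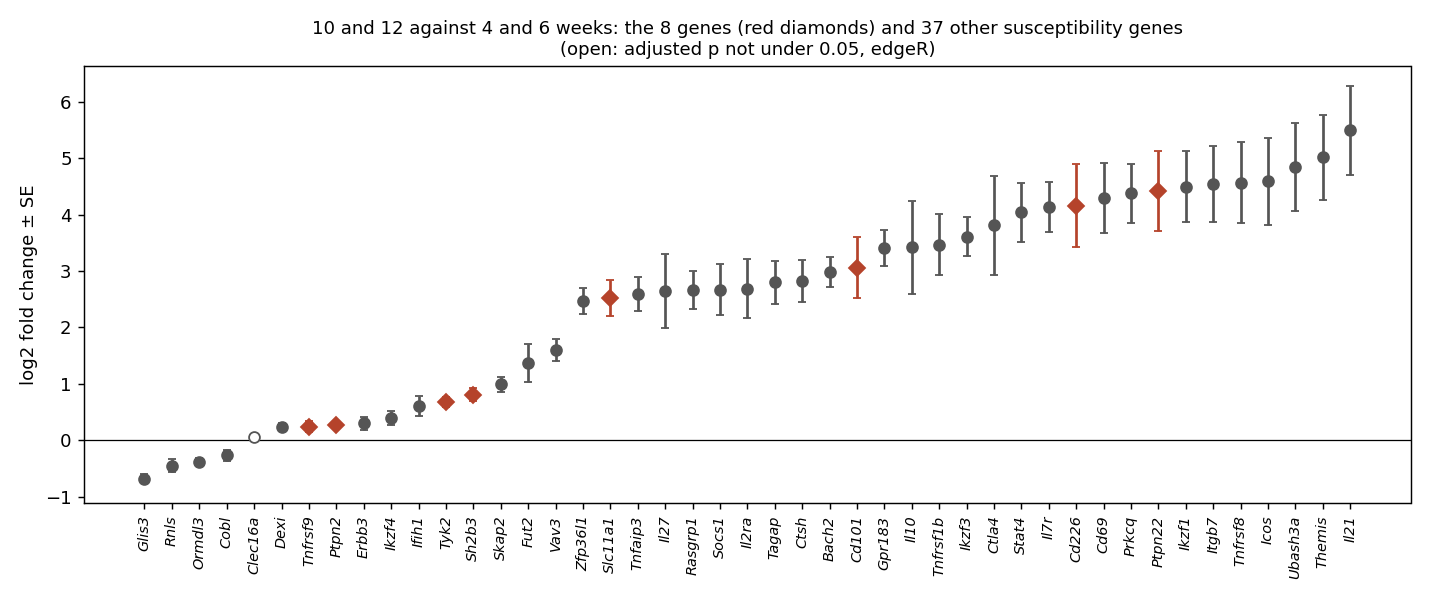
Log2 fold change ± SE (vertical axis) at 10 and 12 against 4 and 6 weeks of the 8 genes (red diamonds) and 37 other susceptibility genes (grey circles), in order of size. The open circle did not pass (adjusted p not under 0.05, edgeR). The values run from -0.68 for Glis3 to 5.5 for Il21, with Tnfrsf9 and Ptpn2 at 0.24 and 0.27 and Ptpn22 at 4.42.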

How the data were processed

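The study isolated islets from NOD females, 3 mice at each of 5 ages, grouped here by the age in the labels. Per its methods the authors trimmed, aligned and counted reads in CLC Genomics Workbench with default settings, and per the labels the build was mm10. The deposited table holds counts, whole numbers of reads per gene with no normalization, and TPM, scaled by the authors per transcript length and library. Counts were used for every test and TPM for levels between genes. A further 30 per-sample columns (RPKM and CPM) were not used, and 2 listed genes were not analysed here. Whether counting used strand is not given in the sources used here.

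Counts were fitted in edgeR 4.0.16 (R 4.3.3, limma 3.58.1) with filterByExpr over the ages (16554 of 48709 genes), TMM scaling, 1 mean per age and glmQLFTest. P-values were adjusted by Benjamini-Hochberg over all genes tested, and SE was the log2 fold change divided by the square root of F. Totals were 25407492 to 41616275 counts per mouse, and 3 counts (0.0754 to 0.128 CPM) were taken as the floor, for counting error only. CPM used TMM-scaled totals, and log2 CPM a prior count of 2. Single values were compared by exact permutation, two-sided. Pairs of replicates gave chi-square values of 15.9 to 127 per degree of freedom, so no sample was counted as a repeat of another. Sequences came from the RefSeq windows supplied with GRCm38.p6. The pipeline was tested on simulated data. Tables and figures were made in Python 3.11.15 with pandas 2.3.3, scipy 1.17.1 and matplotlib 3.10.9.

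The 8 genes and the lists were chosen with earlier results of these data known. The text names the 8 genes, any partner gene, of the other susceptibility genes the 4 largest increases and 4 decreases that passed and those dropped by the filter, and the 3 nearest profiles per gene. Some genes that fall under this rule are not reported here. Alternatives were DESeq2 size factors, library totals, no filter, a replicate block, a fit of the compared ages alone, the edgeR exact test, DESeq2 1.42.0, a prior count of 0.5, T-cell or myeloid markers alone, and each mouse left out. The differences from partner genes and their alternatives were added after seeing the data.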

Additional observations from a re-analysis of the deposited data

How the results depend on the processing

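The 7 genes that passed at 12 against 4 weeks kept an adjusted p under 0.05 in 22 of 22 alternatives, with a highest value of 0.0377 for Cd101. Library totals moved the median of all genes by 0.245 on the log2 scale at 12 against 4 weeks and by 0.229 between the grouped ages, and with them Tnfrsf9 passed at 12 against 4 weeks as well (adjusted p = 0.0486, edgeR). At 8 against 6 weeks 0 of the 8 genes passed, and 0 to 4 with a mouse left out, and the number at the study's threshold was 4, and 1 to 4 with a mouse left out. At 10 against 8 weeks the first number was 2, and it was 0 with no filter, with the replicate block, with only the ages compared and with the edgeR exact test, 4 with DESeq2, and 0 to 5 with a mouse left out. The second was 1, and it was 2 with DESeq2 size factors, library totals or DESeq2, and 1 to 3 with a mouse left out. The replicate numbers did not pair the mice (mean correlation of deviations -0.0795 over 30 same-numbered pairs, from -0.643 to 0.509, with 1 of 15 mice nearest to its own number), and apart from the counts given here the replicate block took away the call of Tnfrsf9 between the grouped ages (adjusted p = 0.0523, edgeR) and no other call. The log2 fold change of Ptpn2 at 8 against 6 weeks was 0.08 with library totals. With 1 mouse left out, the log2 fold changes whose sign turned at 6 against 4 weeks ran from -1.13 to 1.73 for Ptpn22, -0.01 to 0.06 for Ptpn2, -0.74 to 0.53 for Cd101, -0.48 to 0.24 for Slc11a1, -0.15 to 0.03 for Tnfrsf9, -1.54 to 2.24 for Cd226 and -0.08 to 0.22 for Sh2b3. At 8 against 6 weeks they ran from -0.07 to 0.04 for Ptpn2 and -0.02 to 0.11 for Tnfrsf9, and at 12 against 10 weeks from -0.36 to 0.27 for Ptpn22, -0.41 to 0.17 for Cd101, -0.15 to 0.38 for Slc11a1 and -0.1 to 0.16 for Tyk2. In the fit with the leukocyte covariate they ran from -1.83 to 0.58 for Cd101, -0.36 to 0.05 for Slc11a1, -0.28 to 0.01 for Tnfrsf9 and -0.12 to 0.27 for Sh2b3. With T-cell markers alone as the covariate the values were 0.02 for Ptpn22, 0.19 for Cd101 and 0.69 for Slc11a1, and with myeloid markers alone 0.3 for Slc11a1. Relative to marker means, Ptpn22 was at -0.48 with T-cell markers alone, Cd101 at 0.3 and Cd226 at 1.82 with myeloid markers alone, and Cd226 at 0.06 with a prior count of 0.5. In the main settings none of the differences whose sign turned had passed its test, except 1. That was Cd101 relative to the 22 leukocyte markers, at -1.81 (exact permutation p = 0.00433). Of the turned values relative to markers, -0.48 for Ptpn22 and 1.82 for Cd226 had exact permutation p-values of 0.00433 each. The cause was not tested. Counts of up to 29 for Cd226 and 18 for Cd101 in the young mice limit how well their fold changes are known.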
